A study of Mus musculus with 12 samples.

Results

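Secreted and membrane proteins are folded in the endoplasmic reticulum (ER), and a Schwann cell that begins to myelinate makes large amounts of them, the proteins of the myelin sheath among them. The unfolded protein response is the signalling system that adjusts the folding capacity of the ER to this load. Its sensors are Ire1 (gene Ern1), Perk (gene Eif2ak3) and Atf6, and their outputs are the transcription factors Xbp1, Atf4 and Atf6, which raise the genes of chaperones, of disulfide bond formation and of ER-associated degradation (ERAD), the removal of misfolded proteins from the ER. The system is known in peripheral nerve from inherited neuropathies in which a mutant myelin protein is held back in the ER.

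The members of this set of genes were 35 genes named by symbol, of 25700 genes listed in the count table, and all 35 were found by their Ensembl identifiers. They comprised 11 chaperones and cochaperones (Hspa5, Hsp90b1, Canx, Calr, Dnajb9, Dnajb11, Dnajc3, Hyou1, Sdf2l1, Creld2 and Manf), 6 genes of oxidative folding (Pdia3, Pdia4, Pdia6, P4hb, Ero1l and Ero1lb), 8 genes of ERAD (Herpud1, Sel1l, Syvn1, Derl1, Derl2, Derl3, Edem1 and Edem2), 6 sensors and transcription factors (Xbp1, Atf4, Atf6, Ern1, Eif2ak3 and Ddit3) and 4 target genes of Atf4 and Ddit3 (Trib3, Ppp1r15a, Asns and Chac1). Of these, 34 passed the filter on low counts and were tested among 18597 genes. Chac1 did not pass, with at most 1.05 CPM (the share of a library's counts, scaled as edgeR does) in any library.

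Schwann cells were sorted from the sciatic nerves of mice at postnatal day 5, through 3 gates with 4 libraries each. All animals carried a Cre transgene active in the Schwann cell lineage, ReYFPTg/+ (eYFP switched on by Cre) and βAct-DsRedTg/+ (a red reporter in all cells) on a C57bl/6J background, and every gate required eYFP, so a cell that never made enough Cre was outside the study. The allSC gate took all eYFP-positive cells, the mSC gate those with high side scatter, enriched in myelinating cells, and the nmSC gate those with low side scatter, enriched in cells that were not myelinating. The nerves had been minced and digested at 37 °C with trypsin, collagenase and hyaluronidase, and the 3 libraries of a number carry the same subject in the labels, here called a mouse. Smart-Seq2 libraries held between 8180927 and 16918122 counts on genes, and 3 counts corresponded to between 0.177 and 0.367 CPM. CPM values below were scaled by the TMM method, with factors of 0.744 to 0.871 for mSC and of 1.16 to 1.27 for nmSC libraries.

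The gates differed as their labels say in the myelin gene Pmp22, which had a mean of 78291 CPM in mSC and 6427 CPM in nmSC, and Sox10, a factor of the whole Schwann lineage, had 267 and 266 CPM. Libraries 1 and 4 of mSC stood apart from the other libraries by transcript length, in opposite directions. Genes were ranked by transcript length, and the median deviation from the gate mean of the 4644 longest minus that of the 4644 shortest was -0.34 on the log2 scale in mSC 4 and 0.28 in mSC 1, and between -0.08 and 0.06 in the other libraries. Results for members that rest on mSC 4 are given with and without it, and that of Sdf2l1 with and without mSC 1. These are bulk samples of sorted cells, in which fewer cells of a type and less RNA per cell cannot be told apart.

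Promoters were searched for the elements that factors of the response are known to bind. RefSeq promoters on GRCm38.p6, 250 bases before to 50 after the annotated start, were matched for 31 of the 35 members (32 promoters, no entry for Hyou1, Manf, Derl1 or Atf6). The ER stress response element, bound by Atf6 with the CCAAT factor NF-Y, was searched on both strands as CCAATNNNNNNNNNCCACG. It occurred in 10 of the 32 member promoters (31.2%) and in 39 of all 32851 promoters (0.119%), which include those of the members. The second element, ATTGGNCCACG, was in the promoters of Dnajb11 and Herpud1, among 12 of all promoters (0.0365%). The core TGACGTGG, known to bind Xbp1 and Atf6, was in no member promoter and in 222 of all promoters (0.676%). TGATGNAA, the element bound by Atf4 with a C/EBP partner, was in 4 member promoters (12.5%), those of Herpud1, Trib3, Asns and Chac1, and in 1304 of all promoters (3.97%). The 4 patterns do not contain one another, and a match is a description of letters, not of binding.

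The matches of the ER stress response element are shown because members with and without the element are counted side by side below. They are read 5′ to 3′ on the strand of the gene, with positions counted from 0 at the RefSeq start, and the fixed letters of the element are in capitals with the gap in lower case. CGTGG followed later by ATTGG is the element on the opposite strand.
Hspa5, -65 to -47: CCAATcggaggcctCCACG
Hsp90b1, -212 to -194: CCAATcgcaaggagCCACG
Hsp90b1, -107 to -89: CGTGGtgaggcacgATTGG
Canx, -145 to -127: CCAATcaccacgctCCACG
Calr, -162 to -144: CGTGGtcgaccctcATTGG
Dnajc3, -105 to -87: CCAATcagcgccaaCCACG
Creld2, -126 to -108: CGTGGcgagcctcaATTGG
Pdia6, -98 to -80: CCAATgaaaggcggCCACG
Ero1lb, -201 to -183: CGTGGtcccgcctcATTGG
Syvn1, -44 to -26: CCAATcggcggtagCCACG
Derl3, -156 to -138: CGTGGgacttccccATTGG
All 10 of these promoters held the element upstream of the start. Dnajb11 and Herpud1 held the second element.
Dnajb11, 7 to 17: ATTGGcCCACG
Herpud1, -52 to -42: ATTGGgCCACG
The Atf4 element of the Asns promoter lay at -23 to -16.

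The 250 bases before the start are shown in full for Hspa5, the best known target of the response, for Canx, the chaperone with the clearest difference between gates, and for Asns, the member with the largest fold change and an Atf4 element. Matched letters are in capitals.
Hspa5 promoter, chr2:34771840-34772089 on the plus strand: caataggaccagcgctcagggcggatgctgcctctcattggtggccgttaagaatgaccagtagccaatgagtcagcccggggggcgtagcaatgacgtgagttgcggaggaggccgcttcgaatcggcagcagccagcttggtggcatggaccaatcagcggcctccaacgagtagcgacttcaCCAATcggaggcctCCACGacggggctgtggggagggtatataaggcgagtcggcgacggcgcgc
Canx promoter, chr11:50325674-50325923 on the minus strand: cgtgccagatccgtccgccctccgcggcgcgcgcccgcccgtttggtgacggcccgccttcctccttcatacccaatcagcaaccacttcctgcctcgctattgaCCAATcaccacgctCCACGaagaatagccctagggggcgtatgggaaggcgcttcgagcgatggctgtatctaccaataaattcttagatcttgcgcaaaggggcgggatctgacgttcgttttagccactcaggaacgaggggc
Asns promoter, chr6:7693210-7693459 on the minus strand: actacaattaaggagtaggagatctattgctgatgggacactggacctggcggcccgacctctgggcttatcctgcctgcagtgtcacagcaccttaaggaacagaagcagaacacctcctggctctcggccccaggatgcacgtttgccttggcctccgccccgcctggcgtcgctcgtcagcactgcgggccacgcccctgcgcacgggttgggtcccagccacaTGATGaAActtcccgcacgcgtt
Hspa5 and Canx carry the same element at different distances from the start. In GRCm38 with the GENCODE annotation, Hspa5 (ENSMUSG00000026864) spans chromosome 2 from 34771970 to 34777547 on the plus strand, Canx (ENSMUSG00000020368) chromosome 11 from 50293961 to 50325673 on the minus strand, and Asns (ENSMUSG00000029752) chromosome 6 from 7675169 to 7693254 on the minus strand, so the printed bases of Canx lie wholly upstream of the GENCODE start and those of Hspa5 and Asns, whose starts differ between RefSeq and GENCODE, run across it.

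Between mSC and nmSC, a comparison made to set cells that had begun to myelinate apart from those that had not, the members did not all move in the same direction. Canx, Derl1, Sel1l, Xbp1, Atf4 and Asns were among 14 members that rose in mSC against nmSC, Sdf2l1, Pdia4 and Ern1 fell, and 17 members, Hspa5 among them, did not pass the test (adjusted p under 0.05 by the quasi-likelihood test of edgeR, Benjamini-Hochberg adjusted over all tested genes). Of all tested genes 40.5% were called, 20.4% higher and 20.1% lower in mSC. The median log2 fold change was 0.22 over the 34 tested members and -0.16 over all tested genes. With the mouse as a block the members' counts were the same, 14 and 3. Where gates are said below not to overlap, this describes the libraries of that member. The share of all tested genes without overlap was not counted.

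These counts depend on how the libraries are scaled. With the size factors of DESeq2, 15 members were higher and 2 lower, where 22.6% of all tested genes were higher and 17.7% lower. With library size without the 50 genes with the most counts, 3 were higher and 6 lower, where 10.9% of all tested genes were higher and 41.8% lower at a median log2 fold change of -0.53. With library size alone 2 were higher (Canx and Asns) and 18 lower, where 7.79% of all tested genes were higher and 55.9% lower at a median of -0.73. Sign changed with library size alone in 15 members, 3 of them called with TMM (Dnajb11, Derl2 and Ppp1r15a). Relative to the median of all tested genes in the same scaling, 29 of the 34 tested members were above it under each of the 4 scalings, and Sdf2l1, Pdia4, Derl3, Edem1 and Ern1 were below it with TMM. The members' median was 0.39 above that of all genes in each of these scalings. A change of scaling shifts all genes by nearly the same amount. This count and this gap could therefore hardly differ between scalings, and their agreement is no further support. Without mSC 4, 15 members were higher, 3 lower and 29 above the median of all genes.

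**Figure D1:**
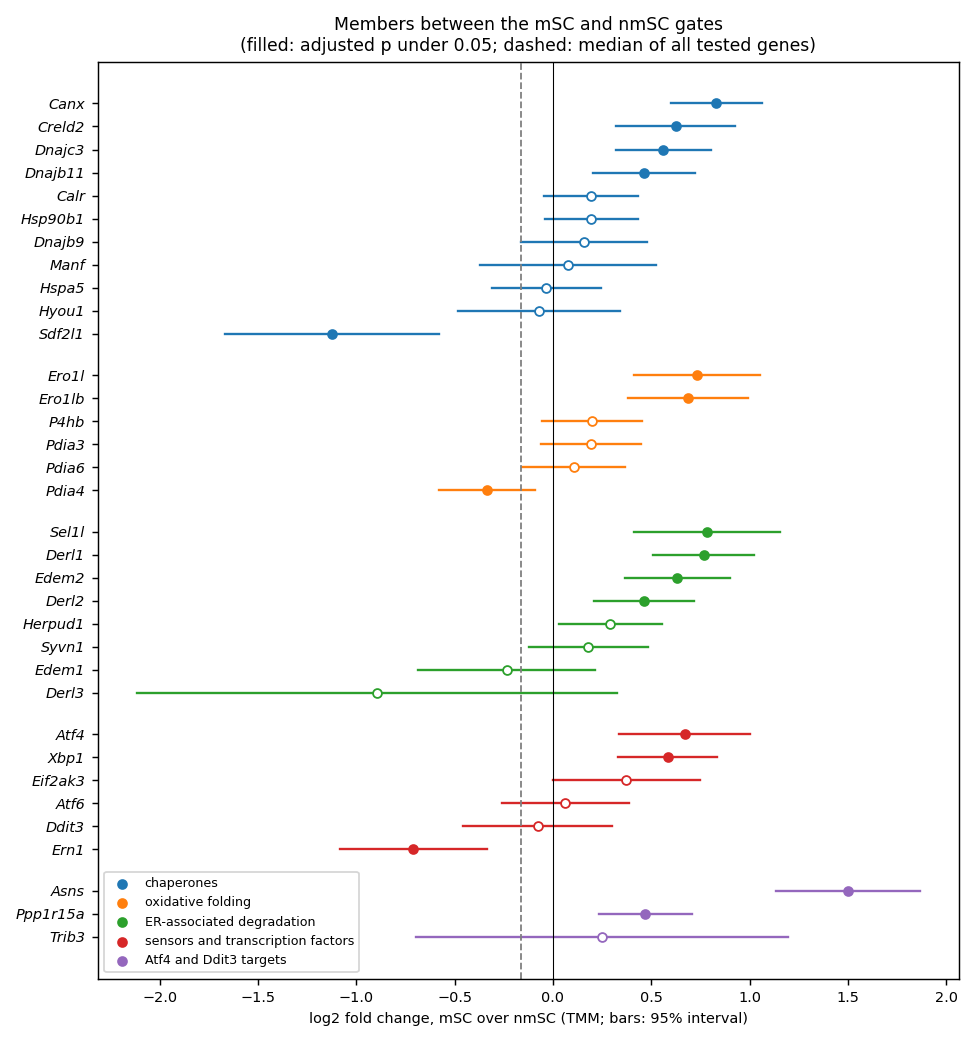
Log2 fold change of the 34 tested members between mSC and nmSC (x axis, points with 95% intervals), by role and TMM-scaled. Filled points are the 14 higher and 3 lower members, the dashed line is the median of all tested genes at -0.16, and with library size alone 15 members change sign.

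Among the chaperones, Canx had the smallest adjusted p. It encodes calnexin, the membrane-bound lectin chaperone that holds newly made glycoproteins. Canx had 1081, 1121, 1109.9 and 1076 CPM in mSC libraries 1 to 4, 571, 582, 588 and 725 CPM in nmSC libraries 1 to 4, and 821, 861, 843 and 867 CPM in allSC libraries 1 to 4. Every mSC library lay above every allSC library, and every allSC library above every nmSC library, with nmSC 4 the highest of its gate. The log2 fold change mSC against nmSC was 0.83 ± 0.110 SE (adjusted p = 5.09e-06 in edgeR's test, higher in 4 of 4 mice), and it was above 0 in all 4 scalings, with 0.27 at library size alone as the lowest. Calr encodes calreticulin, the soluble lectin chaperone of the same cycle. It had 246 to 328 CPM across mSC and 226 to 261 CPM across nmSC libraries, with a log2 fold change of 0.20 (95% interval -0.04 to 0.43, adjusted p = 0.175) that did not pass the test.

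Hspa5 encodes BiP, the central Hsp70 chaperone of the ER lumen and the gene most used as a reporter of the response. It had 616, 657, 528 and 603 CPM in mSC, 541, 648, 695 and 578 CPM in nmSC, and 665, 671, 520.5 and 489 CPM in allSC libraries 1 to 4. The 3 gates overlapped over nearly their whole range. The log2 fold change of mSC against nmSC was -0.03 (95% interval -0.31 to 0.24, adjusted p = 0.853). That interval excludes a change of the size seen for Canx, but its position depends on the scaling. Hspa5 was called lower at -0.60 with library size alone (adjusted p = 0.00102) and without the 50 top genes (-0.40, adjusted p = 0.0141), and was 0.13 above the median of all genes in each of the 4 scalings. Hsp90b1 encodes Grp94, the Hsp90 of the ER, and had mean levels of 611 ± 58.3 CPM (mSC) and 534 ± 42.2 CPM (nmSC, SD, n = 4 each), a log2 fold change of 0.19 (adjusted p = 0.172) that did not pass. Of the exon bases of Hsp90b1, 15.7% are shared with other annotated genes, and the use of strand in counting is not stated.

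**Figure D2:**
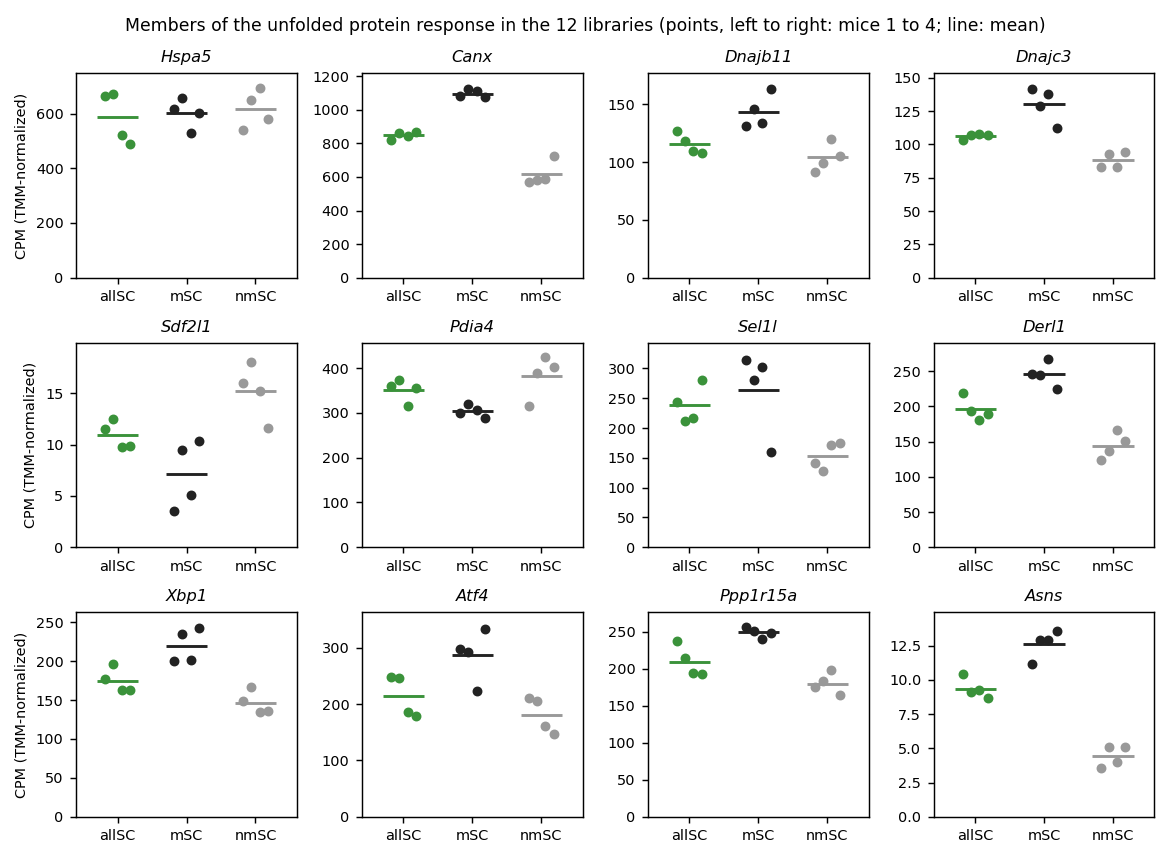
CPM (TMM-normalized, linear axes from 0) of 12 members in each library of the allSC, mSC and nmSC gates, with mice 1 to 4 from left to right and the mean as a line. Canx separates the 3 gates without overlap while Hspa5 overlaps in all 3, and mSC 4 is the low library of its gate for Sel1l at 160.0 CPM.

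Of the J-domain partners of Hspa5, Dnajb11 and Dnajc3 rose and Dnajb9 did not pass. Dnajb11 (ERdj3), which hands unfolded chains to BiP, had 131, 146, 134 and 163 CPM in mSC, 91.7, 99.1, 120.0 and 105 CPM in nmSC, and 127, 118, 109 and 108 CPM in allSC libraries. The mSC libraries all lay above the nmSC libraries, with a log2 fold change 0.46 ± 0.123 SE (adjusted p = 0.00570 in edgeR's test), which turned to -0.10 with library size alone. Dnajc3 (p58IPK) is a lumenal J protein, also described as an inhibitor of Perk. It had 142, 129, 138 and 112 CPM in mSC, 82.6, 93.0, 83.0 and 94.2 CPM in nmSC and 103, 107, 108 and 107 CPM in allSC. Its mSC and nmSC libraries did not overlap, at a log2 fold change of 0.56 (adjusted p = 0.000652). Dnajb9 (ERdj4), which represses Ire1 through BiP, had 27.3 to 39.0 CPM across mSC and 21.9 to 34.7 CPM across nmSC libraries, and did not pass (log2 fold change 0.16, adjusted p = 0.414).

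Sdf2l1, a partner of Dnajb11 in a complex with BiP, went the other way. It had 3.53, 9.46, 5.12 and 10.3 CPM in mSC, 16.0, 18.1, 15.2 and 11.6 CPM in nmSC, and 11.6, 12.5, 9.77 and 9.85 CPM in allSC. Every mSC library was below every nmSC library, and the log2 fold change was -1.12 ± 0.260 SE, 2.18-fold lower in mSC (adjusted p = 0.00200), which stayed at or below -1.06 in the 4 scalings. Without mSC 1, the lowest mSC library, the log2 fold change of Sdf2l1 was -0.87. Creld2, a target of the Atf6 branch, rose, with 64.1 to 107 CPM across mSC and 50.4 to 60.1 CPM across nmSC libraries (log2 fold change 0.62, adjusted p = 0.00188). Without mSC 4, its highest library, the log2 fold change of Creld2 was 0.49. Hyou1 (Grp170, which exchanges the nucleotide of BiP) and Manf (a secreted ER stress protein) did not pass, at -0.07 and 0.08 log2, and mSC 4 was the lowest mSC library for Hyou1 (19.3 CPM) and the highest for Manf (81.8 CPM). Without mSC 4 their log2 fold changes were 0.13 and -0.24.

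Over the 11 chaperones, 4 rose, 1 fell and 6 did not pass, where 20.4% of all tested genes were higher and 20.1% lower. The chaperones' median log2 fold change was 0.19, or -0.38 with library size alone. Their summed level was 3077 ± 131 (SD, n = 4) CPM in mSC, 2644 ± 146 (SD, n = 4) CPM in allSC and 2390.1 ± 124 (SD, n = 4) CPM in nmSC. Canx contributed most of the difference between the mSC and nmSC sums.

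In oxidative folding, both oxidases rose, Pdia4 fell and the other isomerases did not pass. Ero1l and Ero1lb encode the oxidases that reload protein disulfide isomerase with oxidizing power. Ero1l had 32.4 to 52.0 CPM across mSC and 21.4 to 29.0 CPM across nmSC libraries (log2 fold change 0.73, adjusted p = 0.000774), and Ero1lb had between 20.2 and 26.0 CPM against 13.5 to 17.8 CPM (0.69, adjusted p = 0.000872). The mSC and nmSC libraries did not overlap for either oxidase. P4hb, the isomerase Pdi itself and also a subunit of collagen prolyl hydroxylase, had mean levels of 1016 ± 33.6 CPM (mSC) and 885 ± 152 CPM (nmSC, SD, n = 4 each) and did not pass (log2 fold change 0.20, adjusted p = 0.193). Without nmSC 3 it was 0.32 and passed (adjusted p = 0.0323). Pdia3, the isomerase that works with calnexin and calreticulin, did not pass either (0.19, adjusted p = 0.212), nor did Pdia6 (0.11, adjusted p = 0.508).

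Pdia4 (ERp72) had 300.3, 321, 306 and 288 CPM in mSC, 315, 390.2, 424 and 402 CPM in nmSC, and 361, 372, 316 and 357 CPM in allSC. The mSC and nmSC ranges overlapped through nmSC 1 and mSC 2, although Pdia4 was lower in mSC in 4 of 4 mice. The log2 fold change was -0.33 ± 0.116 SE (adjusted p = 0.0281), a call that was lost with the size factors of DESeq2, with DESeq2's own test, without the filter, with only both gates in the fit, and without any of mSC 1, mSC 2, mSC 3, nmSC 2, nmSC 3 or nmSC 4. Over the 6 genes of oxidative folding, 2 rose, 1 fell and 3 did not pass, where 20.4% of all tested genes were higher and 20.1% lower. The summed levels of these 6 genes, 2515 ± 131 CPM (mSC) and 2312 ± 299 CPM (nmSC, SD, n = 4 each), overlapped.

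Of the genes of ERAD, Sel1l, Derl1, Derl2 and Edem2 rose. Sel1l is the adaptor of the Hrd1 ubiquitin ligase. It had 314, 281, 303 and 160.0 CPM in mSC, 141, 128, 172 and 175 CPM in nmSC, and 244, 212, 217 and 281 CPM in allSC. Libraries 1 to 3 of mSC were above all nmSC libraries, and mSC 4 was below nmSC 3 and nmSC 4, so the gates overlapped and Sel1l was higher in mSC in 3 of 4 mice. The log2 fold change was 0.78 ± 0.178 SE (adjusted p = 0.00170) and 0.97 without mSC 4 (adjusted p = 1.74e-06). Derl1, a channel-like protein of the ER membrane through which substrates leave, had 246, 245, 267 and 225 CPM in mSC, 123, 136, 167 and 151 CPM in nmSC, and 219.6, 194, 181 and 189 CPM in allSC. Its mSC libraries all lay above the nmSC libraries (log2 fold change 0.77 ± 0.121 SE, adjusted p = 4.64e-05).

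Derl2, a relative of Derl1, had 65.9 to 81.8 CPM across mSC and 49.0 to 56.9 CPM across nmSC libraries (log2 fold change 0.46, adjusted p = 0.00509, and -0.11 with library size alone). Edem2, a mannosidase that starts the trimming of misfolded glycoproteins, had between 60.6 and 69.6 CPM against 35.1 to 47.1 CPM (0.63, adjusted p = 0.000541). Edem1, the related protein that takes such glycoproteins on to disposal, had 21.9 to 42.9 CPM across mSC and 29.0 to 51.0 CPM across nmSC libraries and did not pass (-0.24, adjusted p = 0.386, and -0.07 without mSC 4, the lowest library). Herpud1, which assembles the Hrd1 complex, had an adjusted p of 0.0676 in edgeR's test at 0.29, and it was called with the size factors of DESeq2 and without nmSC 3 (0.37, adjusted p = 0.0310). Syvn1, the Hrd1 ligase itself, had 0.18 (adjusted p = 0.328). Derl3 was at or below 1.01 CPM in every library, with 2 to 13 counts.

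Over the 8 ERAD genes, 4 rose and the other 4 did not pass, where 20.4% of all tested genes were higher and 20.1% lower. The median log2 fold change of the ERAD genes was 0.38, or -0.19 with library size alone. Their summed level was 801 ± 75.1 CPM (mSC) and 535 ± 48.7 CPM (nmSC, SD, n = 4 each), and the ranges did not overlap (694 to 871 against 479 to 582 CPM).

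Among sensors and transcription factors, Xbp1 and Atf4 rose, Ern1 fell and the other 3 did not pass. Of all tested genes 20.4% were higher and 20.1% lower. The median log2 fold change of these 6 genes was 0.22, or -0.33 with library size alone. In that scaling 0 of them were higher and 3 lower (Atf6, Ern1 and Ddit3), where 55.9% of all tested genes were lower. Xbp1, whose message is spliced by Ire1 to give the active factor, had 200.0, 234, 201 and 242 CPM in mSC, 149, 167, 135 and 136 CPM in nmSC, and 177, 196, 163 and 163 CPM in allSC. All mSC libraries were above all nmSC libraries (log2 fold change 0.58 ± 0.121 SE, adjusted p = 0.000738). Counts per gene do not separate spliced from unspliced Xbp1. Atf4, which is translated when Perk or a related kinase phosphorylates eIF2α, had 298, 292, 224 and 333 CPM in mSC, 210.2, 205, 160.4 and 146 CPM in nmSC, and 248, 246, 187 and 179 CPM in allSC. Here too the mSC libraries lay above the nmSC libraries (log2 fold change 0.67 ± 0.158 SE, adjusted p = 0.00233), and RNA counts do not measure translation. With library size alone Xbp1 and Atf4 had log2 fold changes of 0.01 and 0.09, which did not pass.

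Ern1, the sensor Ire1α, was low in every gate, with 4.61 to 7.19 CPM across mSC and 9.15 to 10.1 CPM across nmSC libraries. The gates did not overlap, and the log2 fold change was -0.71 ± 0.179 SE (adjusted p = 0.00387). Eif2ak3 (Perk) had 46.3, 48.2, 46.1 and 23.8 CPM in mSC libraries 1 to 4 and between 26.9 and 35.8 CPM in nmSC. Only mSC 4 was below the nmSC libraries, and the log2 fold change of 0.37 did not pass (adjusted p = 0.102). Without mSC 4 it was 0.56 and passed (adjusted p = 0.000831). Atf6 (0.06, adjusted p = 0.763) and Ddit3 (-0.08, adjusted p = 0.748), the gene of the death-promoting factor Chop, did not pass, and Ddit3 had between 16.2 and 26.4 CPM over all 12 libraries, with 10.9% of its exon bases shared with other annotated genes.

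Of the targets of Atf4 and Ddit3, Asns showed the largest fold change of all members. It encodes asparagine synthetase, which Atf4 raises in the amino acid response. Asns had 11.2, 12.9, 12.9 and 13.6 CPM in mSC, 3.55, 5.10, 4.03 and 5.07 CPM in nmSC, and 10.4, 9.10, 9.23 and 8.64 CPM in allSC. Every mSC library was above every allSC library and every allSC library above every nmSC library. The log2 fold change mSC against nmSC was 1.50 ± 0.174 SE (2.83-fold, adjusted p = 9.77e-07), and 0.94 with library size alone. Ppp1r15a (Gadd34), the phosphatase subunit that ends the block of translation, had 256, 252, 241 and 249 CPM in mSC, 175, 183, 198 and 165 CPM in nmSC, and 238, 215, 194 and 193 CPM in allSC. Its mSC libraries were above the nmSC libraries (log2 fold change 0.47 ± 0.112 SE, adjusted p = 0.00258), but the sign turned with library size alone (-0.10). Trib3, an inhibitor of Akt and Atf4, was at or below 1.34 CPM in every library and did not pass (0.25, adjusted p = 0.675), and Chac1, a glutathione-degrading enzyme, was not tested.

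**Figure D3:**
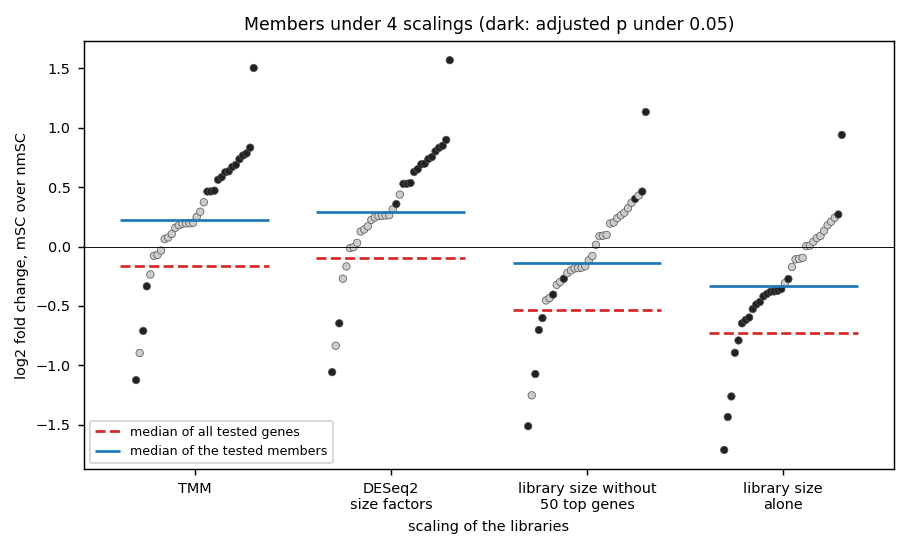
Log2 fold change of mSC over nmSC for the 34 tested members, sorted within each of 4 scalings (x axis), with the members' median as a solid line and the median of all tested genes as a dashed line. The whole set of values shifts between scalings, from 14 higher and 3 lower members with TMM to 2 higher and 18 lower with library size alone. The gap between both medians is 0.39 in each, since a scaling moves both by nearly the same amount.

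Members with and without the ER stress response element were counted side by side. Of the 10 members with the element, 4 rose (Canx, Dnajc3, Creld2 and Ero1lb) and 6 did not pass, namely Hspa5, Hsp90b1, Calr, Pdia6, Syvn1 and Derl3. With the second element added, 5 of 12 rose and 7 did not pass, at a median log2 fold change of 0.24. Of the 18 tested members with a matched promoter and neither element, 8 rose, 3 fell and 7 did not pass, at a median of 0.31. Of the 3 tested members with the Atf4 element, Asns rose and Herpud1 and Trib3 did not pass. Of all tested genes 20.4% were higher and 20.1% lower in mSC. The members are few, and no difference between these groups of members was tested.

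The allSC gate took all eYFP-positive cells, so it mixes cells of the kinds in both other gates and is not a control. Both comparisons with it share its 4 libraries and are given side by side. For a gene that differs between mSC and nmSC, an allSC level between them follows from this mixing. Such a level is no further support for the difference. Of all tested genes, 17.6% were called between mSC and allSC, 8.76% higher and 8.8% lower in mSC, and 10.4% between nmSC and allSC, 2.82% higher and 7.55% lower in nmSC. Among the 34 tested members, 3 were higher in mSC than in allSC, Canx (log2 fold change 0.37, adjusted p = 0.0240), Creld2 (0.44, adjusted p = 0.0405) and Ero1lb (0.42, adjusted p = 0.0490), and 0 were lower in edgeR's test (2 with an unadjusted p under 0.05, and 0 with DESeq2's test). The share of members called higher was near the 8.76% of all tested genes. With the mouse as a block, Canx (adjusted p = 0.0362) and Atf4 (0.43, adjusted p = 0.0491) were higher, and Creld2 and Ero1lb had adjusted p of 0.0674 and 0.0776. The count of 3 also became 6 without mSC 4, 1 without allSC 4, 0 without any of allSC 1, allSC 2, allSC 3 or mSC 2, and 10 with the size factors of DESeq2. Of all tested genes 10.2% were higher without mSC 4 and 11.3% with the size factors of DESeq2.

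In nmSC against allSC, 4 members were lower. Asns had a log2 fold change of -1.07 (adjusted p = 0.000302), Sel1l -0.63 (adjusted p = 0.0262), Canx -0.46 (adjusted p = 0.00868) and Derl1 -0.44 (adjusted p = 0.0233). The libraries did not overlap for any of the 4, and the share of all tested genes without overlap was not counted. No member was higher in edgeR's test (0 with an unadjusted p under 0.05, and 0 with DESeq2's test), and the block left the calls as they were. The count of 4 was 2 without allSC 1, allSC 4, nmSC 1 or nmSC 2. The mean of allSC lay between those of mSC and nmSC in 28 of the 34 tested members (82.4%) and in 69.5% of all tested genes, and the exceptions were Hspa5, Hyou1, Manf, Pdia6, Syvn1 and Atf6, none of which was called between mSC and nmSC.

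The order of the members by level, in CPM per kb of exon, was nearly the same in the gates. P4hb was first and Pdia3 was the second in each gate, with 355 ± 11.7 and 268 ± 34.7 CPM per kb (SD, n = 4) in mSC. Canx was the third in mSC at 234 ± 4.74 CPM per kb and the sixth in nmSC at 131 ± 15.4 CPM per kb, where Pdia4, Hspa5 and Hsp90b1 stood above it. With the mean transcript length in place of the union of exons, Canx was the third in mSC and the fifth in nmSC, with Hspa5 and Hsp90b1 above it and Pdia4 below it. Hspa5, Hsp90b1 and Canx in nmSC, at 146 ± 16.3, 132 ± 10.5 and 131 ± 15.4 CPM per kb, lay within their spread of each other. Ern1 had 0.703 ± 0.134 CPM per kb in mSC, below Eif2ak3 with 6.82 ± 1.92 and Atf6 with 5.96 ± 1.25, which lay within their spread of each other. Trib3, Derl3 and Chac1 were the lowest members in mSC, each under 0.5 CPM per kb.

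**Figure D4:**
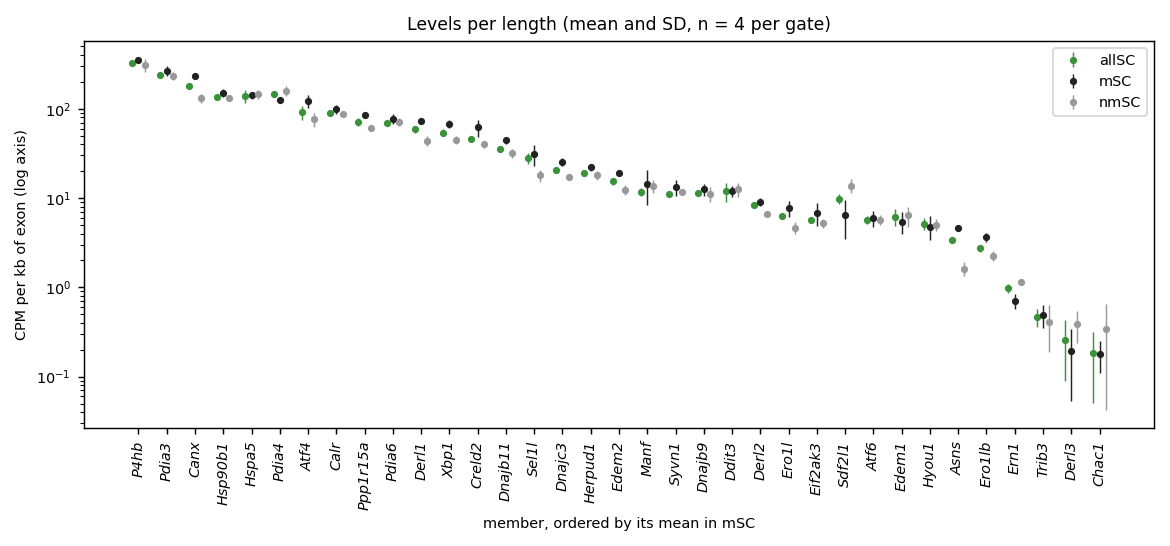
Level of the 35 members in CPM per kb of exon (log axis, mean and SD of 4 libraries per gate), ordered by the mean in mSC. P4hb at 355 CPM per kb leads and Chac1 at 0.180 CPM per kb is the last, and Canx has means of 234 in mSC and 131 in nmSC.

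Ratios of related genes within a library do not depend on the scaling. For 7 such ratios mSC and nmSC were compared by a two-sided exact permutation test, in which 4 libraries against 4 allow no p under 0.0286 and the 7 ratios allow an adjusted p of 0.0667 where 3 of them reach that limit. Canx to Calr was 4.39, 3.95, 3.93 and 3.28 in mSC and 2.28, 2.23, 2.28 and 3.20 in nmSC, with every mSC library above every nmSC library (means 3.89 and 2.50, exact permutation p = 0.0286, adjusted p = 0.0667). Hspa5 to Hspa8, the BiP of the ER against the constitutive Hsp70 of the cytosol, was lower in mSC in 4 of 4 mice, with 0.404 ± 0.0281 (SD) in mSC and 0.520 ± 0.0260 (SD) in nmSC (exact permutation p = 0.0286, adjusted p = 0.0667, n = 4). Hsp90b1 to Hsp90ab1, the same pairing of compartments for Hsp90, was also lower in 4 of 4 mice, with 0.312 ± 0.0163 (SD) and 0.393 ± 0.0365 (SD) (exact permutation p = 0.0286, adjusted p = 0.0667, n = 4). The gates did not overlap in these 3 ratios, and none of the 7 passed after adjustment.

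The pairs of related ERAD and oxidase genes gave less separation. Edem1 to Edem2 was 0.532 ± 0.160 (SD) in mSC and 0.977 ± 0.252 (SD) in nmSC (exact permutation p = 0.0857, adjusted p = 0.12), with mSC 4 at 0.327 the lowest and the gates overlapping. Derl1 to Derl2 was 3.39 ± 0.483 (SD) and 2.72 ± 0.255 (SD) (exact permutation p = 0.0857, adjusted p = 0.12). Ero1l to Ero1lb was 1.67 in mSC and 1.62 in nmSC (exact permutation p = 0.829, adjusted p = 0.829), and Dnajb9 to the cytosolic Dnajb1 was 0.471 and 0.436 (exact permutation p = 0.8, adjusted p = 0.829).

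**Figure D5:**
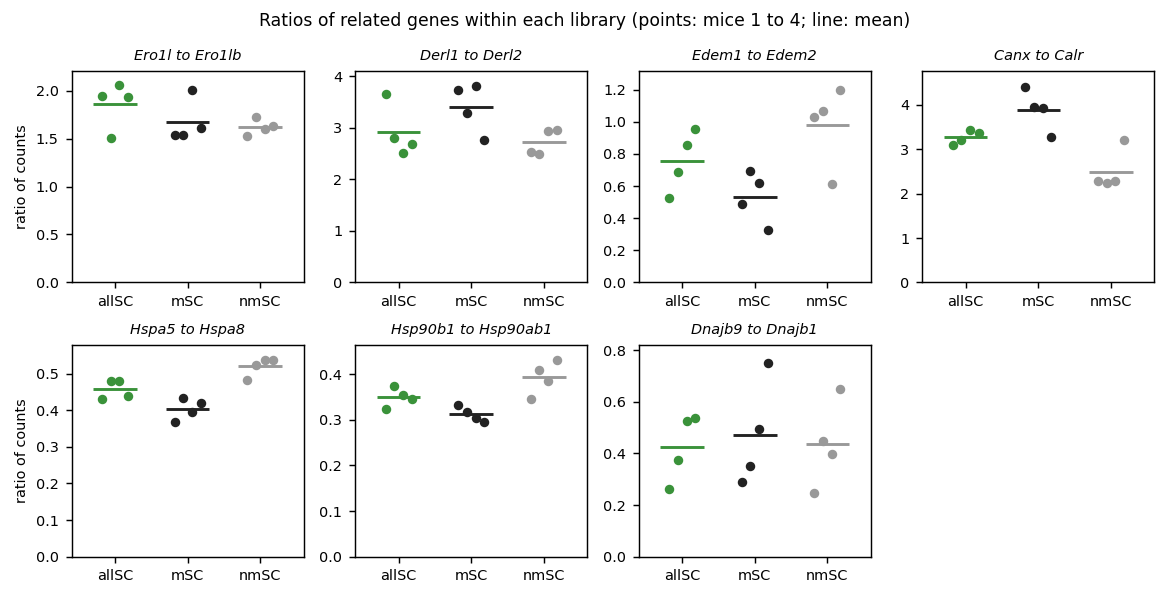
Ratio of the counts of 2 related genes in each library (y axes from 0), for 7 pairs in the allSC, mSC and nmSC gates, with mice 1 to 4 from left to right and the mean as a line. Canx to Calr lies from 3.28 to 4.39 in mSC and from 2.23 to 3.20 in nmSC, Hspa5 to Hspa8 and Hsp90b1 to Hsp90ab1 do not overlap between mSC and nmSC, with mSC lower, and the other 4 ratios overlap.

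No member was called for the term of the mouse in the model with gate and mouse (0 of 34 in edgeR's test, 1 with an unadjusted p under 0.05), where 0.0538% of all tested genes were called.

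The other genes of the ER pathways, 122 in all and all tested, are given by list. In mSC against nmSC, 50 were higher and 13 lower (44 and 12 with the mouse as a block), at a median log2 fold change of 0.24. Of all tested genes 20.4% were higher and 20.1% lower. With library size alone, where 55.9% of all tested genes were lower, 12 of the other pathway genes were higher and 54 lower at a median of -0.33. Of 17 genes of translocation and signal peptide cleavage, 10 were higher and 7 did not pass (median 0.58). Ssr3, a subunit of the translocon-associated complex, had mean levels of 957 ± 69.8 CPM (mSC) and 427 ± 48.0 CPM (nmSC, SD, n = 4 each) (log2 fold change 1.17). Of 23 further ERAD genes, 14 were higher (13 with the block) and 9 did not pass (median 0.38), with Svip, a small inhibitor of ERAD that binds p97, at 402 ± 53.9 and 79.4 ± 16.5 CPM (SD, n = 4, log2 fold change 2.34) and the ubiquitin ligase Rnf5 at 1.20.

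Of 17 genes of N-glycan transfer and trimming, 5 were higher and 2 lower (3 and 2 with the block), and of 26 genes of disulfide and prolyl isomerases and J proteins 12 were higher and 1 lower (9 and 1 with the block). The prolyl isomerase Fkbp14 had a log2 fold change of 1.44, and Fkbp10, which acts on collagen, -1.57. Of 39 genes of stress sensing and the Atf4 programme, 9 were higher, 10 lower (9 and 9 with the block) and 20 did not pass (median -0.02). Beside these lists stand 20.4% higher and 20.1% lower among all tested genes. Slc3a2, the heavy chain of amino acid transporters, rose by 1.82 (555 against 157 CPM). Casp12, a caspase tied to the ER, fell by 4.04, the mitochondrial enzyme Pck2 by 2.82, the stress factor Atf3 by 1.12 and Bcl2l11 (Bim), which promotes cell death, by 1.05 on the log2 scale.

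Other groups of genes moved with the gates too, and their part in the members' values was not tested. Among all tested genes 20.4% were higher and 20.1% lower in mSC. Of 16 tested cytosolic heat shock genes, 5 were higher in mSC (4 with the block) and 11 did not pass, with Cryab at 1573 and 463 CPM, Hsp90ab1 at 1964 and 1362 CPM and Hspa8 at 1492 and 1183 CPM (adjusted p = 0.0491). Of 15 immediate early genes known to respond to tissue dissociation, 2 were higher and 5 lower (2 and 6 with the block). All 12 tested cycling genes were lower in mSC, with summed levels between 104 and 188 CPM against 1340.2 to 1762 CPM. Of 14 Schwann cell markers 8 were higher and 4 lower.

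Markers of other cells of the nerve were summed per library. Their calls stand beside 20.4% higher and 20.1% lower among all tested genes. The 11 fibroblast and perineurial markers had 1 higher (Slc2a1) and 6 lower, with sums 2233 to 4513 CPM across mSC and 12880 to 19232 CPM across nmSC libraries. The sums were mostly Col3a1, Col1a2 and Col1a1, which were lower in mSC. Also lower in mSC were Fbln1 (1.19 against 32.0 CPM), Cldn1 (10.3 against 24.4 CPM) and Itgb4 (127 against 206 CPM). Pdgfra, at 2.34 CPM in mSC and 2.35 CPM in nmSC, Dcn, Lum and Cd34 did not pass. Of 7 tested endothelial markers 2 were higher and 3 lower (sums 53.8 to 74.7 against 19.4 to 33.7 CPM), and of 8 pericyte and smooth muscle markers 2 were higher and 2 lower (107 to 219 against 81.7 to 123 CPM). Of 5 tested immune markers 1 was lower (16.7 to 24.6 against 21.3 to 30.1 CPM), of 3 B and plasma cell markers 2 were lower (2.56 to 4.48 against 7.20 to 9.60 CPM), and of 6 blood and muscle markers 1 was lower (1.25 to 13.5 against 4.35 to 32.5 CPM). Plasma cells are rich in the messages of the ER chaperones, and the part of these or other cells in the members' values was not tested.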

How the data were processed

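The 12 libraries were sequenced from Smart-Seq2 cDNA (SmartSeq2-Picell in the labels) amplified by PCR, with no molecular identifiers, so the floor of 3 counts covers counting error only. Standard errors and intervals come from the edgeR fit and include the spread between libraries. Reads were trimmed, aligned with STAR 2.6.1c and counted on genes with featureCounts per the labels and methods, and the authors deposited raw read counts per gene. The submitters' processing notes name GRCm38.p5 and the methods a human build, while all identifiers are those of mouse. Options for strand and multi-mapping reads are not given in the sources used here. Symbols, positions and exon lengths came from GENCODE M21 (25664 of 25700 identifiers matched). The labels give libraries of a shared number the same subject, taken as the mouse. For mSC and nmSC libraries of a shared number, their deviations from the gate means correlated over genes at -0.23, 0.06, 0.15 and -0.13 for mice 1 to 4. For mSC and allSC these correlations were 0.25, 0.04, 0.06 and 0.11, all above 0. For nmSC and allSC they were -0.09, 0.17, -0.08 and 0.07. The values thus gave no uniform picture, and the pairing was taken from the labels.

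Counts were scaled by TMM and tested with edgeR 4.0.16 in R 4.3.3 (filterByExpr by gate, quasi-likelihood test, 1 model of gate over the 12 libraries, Benjamini-Hochberg adjustment, threshold 0.05). The alternatives were the size factors and the Wald test of DESeq2 1.42.0, library size alone or leaving out the 50 top genes by count, no filter, only the gates compared, the mouse as a block and each library left out. The count above the median of all genes and the deviation by transcript length were added after values had been seen. A value in every library is given for members called between mSC and nmSC with at least 2-fold or a mean of at least 100 CPM, and the values of Hspa5 and Eif2ak3 were added after they had been seen. Of other pathway genes, the 5 with the largest change in each direction at a mean of at least 10 CPM could be named. Members and lists were chosen with earlier results of these data known. The steps were tested on simulated counts. Pseudocount 1 was used for deviations.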

Additional observations from a re-analysis of the deposited data

Results flagged for a closer look

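Over the 35 members and 3 gates, 105 groups of 4 libraries were examined for 1 library far from the other 3 (by Dixon's criterion at 95%), and 4 had such a library, where chance gives about 1 in 20. Canx had 724.789 CPM in nmSC 4 and between 571 and 588 CPM in the other nmSC libraries, still below all mSC libraries. In mSC 4, Ero1lb had 20.1924 CPM where mSC 1 to 3 had 25.4 to 26.0 CPM, and Eif2ak3 had 23.807 CPM with 46.1 to 48.2 CPM in the rest. Derl3 had 0.813952 CPM in mSC 1 and between 0.233 and 0.260 CPM in the other mSC libraries, where mSC 1 had 12 counts and the others 2 to 3.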

How the results depend on the processing

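In mSC against nmSC, the 14 higher members all remained higher when any mSC or nmSC library was left out, with the size factors and the Wald test of DESeq2, without a filter, with only these gates in the fit and with the mouse number as a replicate block, under which the paired fit gave the same 14 and 3. Of the 3 lower members, Sdf2l1 and Ern1 stayed lower in all these settings, while Pdia4 lost its call in those named above. The count of higher members depended on the scaling. Library size alone gave 2 higher and 18 lower members (against 7.79% higher and 55.9% lower of all tested genes), and library size without the 50 top genes 3 and 6 (against 10.9% and 41.8%), since these scalings move the median of all genes. In each, 29 members were above that median, a count that could hardly differ because a scaling moves all genes nearly alike. With TMM, 28 to 30 members were above it when a library was left out. In mSC against allSC, 3 higher and 0 lower members became 10 and 0 with the size factors of DESeq2, and 11 higher with its Wald test. The higher count was 1 with only these gates in the fit and 2 with the replicate block. Either library size scaling gave 0 higher and 3 lower members. Of all tested genes, 11.3% were higher with the size factors of DESeq2. Lower in mSC were 21.3% of all tested genes with library size alone and 14.9% without the 50 top genes. Leaving out a library gave 0 to 6 higher and 0 to 1 lower. In nmSC against allSC, 4 lower members became 1 (and 1 higher) with library size alone and 2 without the 50 top genes. With only these gates in the fit 1 was higher, and leaving out a library gave 2 to 5 lower. Of all tested genes, 11.8% were higher and 4.00% lower in nmSC with library size alone. Without the 50 top genes these shares were 6.71% and 5.04%.

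The log2 fold change of mSC against nmSC changed sign in the following cases, for members that did not pass the test except Dnajb11, Derl2 and Ppp1r15a; the cause was the scaling in the first 2 groups and was not tested in the others. With library size alone it was -0.37 for Hsp90b1, -0.38 for Calr, -0.42 for Dnajb9, -0.10 for Dnajb11, -0.53 for Manf, -0.38 for Pdia3, -0.47 for Pdia6, -0.36 for P4hb, -0.27 for Herpud1, -0.40 for Syvn1, -0.11 for Derl2, -0.49 for Atf6, -0.17 for Eif2ak3, -0.31 for Trib3 and -0.10 for Ppp1r15a. Without the 50 top genes it was -0.18 for Hsp90b1, -0.18 for Calr, -0.22 for Dnajb9, -0.32 for Manf, -0.18 for Pdia3, -0.27 for Pdia6, -0.17 for P4hb, -0.079 for Herpud1, -0.20 for Syvn1, -0.30 for Atf6 and -0.12 for Trib3. For Hspa5 it was 0.030 with the size factors of DESeq2, 0.052 with its Wald test and 0.00031 without a filter. In mSC against nmSC, DESeq2 also called Hsp90b1, Calr and Herpud1 higher. The Wald test gave 0.017 for Hyou1 and 0.0098 for Ddit3. Leaving out a library gave -0.087 to 0.038 for Hspa5, -0.16 to 0.13 for Hyou1, -0.24 to 0.26 for Manf, -0.046 to 0.18 for Atf6 and -0.18 to 0.033 for Ddit3, and log2 differences of -0.053 to 0.074 for the ratio of Ero1l to Ero1lb and -0.16 to 0.31 for that of Dnajb9 to Dnajb1. The other 5 ratios kept their sign without any library, where 3 libraries against 4 allow no exact permutation p under 0.0571 and 4 pairs none under 0.125. Derl3, Trib3 and Chac1 had at most 18 counts in any library, which limits what their values can show.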
